A study of Mus musculus with 4 samples.

Results

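Plasmacytoid dendritic cells (pDC) were followed in single-cell RNA libraries of CD45+ leukocytes from mouse liver. Barcodes were kept with at least 500 UMIs (unique molecular identifiers, each counting 1 captured RNA molecule), at least 200 genes and at most 20% of UMIs from mitochondrial genes. A kept barcode was counted as a pDC if it held at least 1 UMI of Siglech and at least 1 UMI of any of Cox6a2, Klk1, Ccr9 and Smim5. It also had to hold 0 UMIs of Cd79a, Cd3e, Cd3g and Xcr1, and fewer than 3 of the Kupffer cell genes Clec4f, Timd4, Vsig4, Cd5l, Marco and Folr2. These counts chose 366 of 15020 kept barcodes, out of 15383 deposited.

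The livers came from adult wild-type C57BL/6 mice. The exercise group ran on a treadmill at 12.5 m/min for 60 min a day, 5 days a week, for 4 weeks, and the sedentary group was placed on a stationary treadmill on the same schedule. Each group had 2 libraries. The labels give serum alanine aminotransferase, a plasma marker of liver cell injury, of 26 and 59 U/L for the exercise and 33 and 56 U/L for the sedentary samples, so each group held 1 lower and 1 higher value. Livers were digested with collagenase, leukocytes were enriched on Percoll and with CD45 beads, and libraries were made on the 10x Genomics platform. The labels do not say that replicates came from separate animals, so p-values measure the spread between these libraries, which may be technical. Values per library are given below in the order exercise replicate 1, exercise replicate 2, sedentary replicate 1, sedentary replicate 2.

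The libraries held 10050976, 14849778, 10662091 and 11826183 UMIs. The pDC numbered 77, 127, 71 and 91, with medians of 4689, 4698, 3794 and 4154 UMIs per cell, and their counts summed to 352979, 591552, 272564 and 388105 UMIs. Across the 6 pairs of libraries 125 barcodes were shared, of which 8 were barcodes of pDC in 1 library, and no barcode was a pDC in both libraries of a pair.

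pDC are bone marrow-derived sentinels of viral nucleic acid. They take up RNA and DNA into endosomes, where Toll-like receptors signal through Myd88 and Irf7 to release type I interferon, and they carry an enlarged secretory apparatus for it. The E protein Tcf4 holds their identity, while Id2, an inhibitor of E proteins, favours conventional dendritic cells (cDC). Surface receptors such as Siglech signal through ITAM adaptors such as Tyrobp and dampen the interferon response.

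Sequence at the start of 3 of the 5 genes that chose the cells, and of the pDC gene Pacsin1, is shown because Tcf4 binds E-boxes. The windows are RefSeq GRCm38.p6, from 250 bases before to 50 bases after the start of the gene, 5′ to 3′. Siglech lies on the plus strand at chr7:55767934-55768233, Klk1 on the plus strand at chr7:44225110-44225409, Ccr9 on the plus strand at chr9:123766961-123767260 and Pacsin1 on the plus strand at chr17:27684989-27685288. Capitals mark each match to the E-box letters CAGNTG, searched on both strands.
Siglech: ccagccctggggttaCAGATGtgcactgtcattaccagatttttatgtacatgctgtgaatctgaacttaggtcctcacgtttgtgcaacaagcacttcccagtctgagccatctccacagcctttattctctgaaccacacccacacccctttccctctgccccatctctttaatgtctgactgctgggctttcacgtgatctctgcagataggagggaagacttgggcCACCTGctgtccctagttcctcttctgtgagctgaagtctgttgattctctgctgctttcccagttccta
Klk1: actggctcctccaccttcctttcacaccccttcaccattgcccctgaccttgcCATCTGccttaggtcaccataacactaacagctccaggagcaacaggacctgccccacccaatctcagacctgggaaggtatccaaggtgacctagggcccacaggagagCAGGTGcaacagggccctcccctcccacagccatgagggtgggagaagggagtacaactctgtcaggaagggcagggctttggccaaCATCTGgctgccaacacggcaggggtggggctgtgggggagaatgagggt
Ccr9: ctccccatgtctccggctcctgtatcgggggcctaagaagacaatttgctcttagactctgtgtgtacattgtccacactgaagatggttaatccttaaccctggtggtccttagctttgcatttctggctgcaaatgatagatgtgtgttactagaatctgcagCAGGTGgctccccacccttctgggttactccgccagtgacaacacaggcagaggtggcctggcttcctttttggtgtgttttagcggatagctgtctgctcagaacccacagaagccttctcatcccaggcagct
Pacsin1: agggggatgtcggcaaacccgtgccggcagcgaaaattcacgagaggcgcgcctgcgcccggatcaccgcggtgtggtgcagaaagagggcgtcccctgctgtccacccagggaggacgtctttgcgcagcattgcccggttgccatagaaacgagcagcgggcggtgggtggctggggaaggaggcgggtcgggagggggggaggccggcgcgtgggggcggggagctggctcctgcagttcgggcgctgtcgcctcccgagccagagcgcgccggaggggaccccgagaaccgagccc
The Klk1 window held 3 matches, the Siglech window 2 and the Ccr9 window 1, and the Pacsin1 window held 0. The letters are common: 51.4% of 32851 windows of all genes held at least 1 match. The share was 41.6% of 3730 windows of the genes tested against all the comparison classes below, and 44.9% of the 488 windows of genes that were higher in pDC than in each class. The same shares for TGTGGT, the core letters bound by Runt factors such as Runx2, were 16.8%, 12.6% and 13.7%, and for GAGGAA, core letters bound by Spi1 and Spib, 28.3%, 28.7% and 30.3%. A letter match is a description of the window and not a binding site.

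The 5 genes of the rule were measured in every library, and their values describe how the cells were chosen. Levels are in CPM, the usual scaling of a gene's UMIs to the sum of all UMIs of the cells of that class in a library. Siglech, a sialic acid-binding receptor of mouse pDC, stood at 1856, 1807, 1911 and 1932 CPM, with a median of 8 UMIs per cell and at most 21. Cox6a2, a cytochrome c oxidase subunit otherwise known from heart and skeletal muscle, stood at 2009, 1807, 1244 and 1729 CPM and was detected in 92.3% of the cells. Siglech was nearly level across libraries, while Cox6a2 was lowest in sedentary replicate 1. Ccr9, the receptor for the gut and thymus chemokine Ccl25, stood at 635, 862, 752 and 1108 CPM in 88.5% of the cells. Klk1, a tissue kallikrein, stood at 793, 977, 701 and 714 CPM in 73.0% of the cells. Smim5, a small membrane protein, stood at 640, 632, 660 and 714 CPM in 91.5% of the cells. Of the 366 cells, 213 held all 4 partner genes, 117 held 3, 25 held 2 and 11 held 1.

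The label was checked with 17 core pDC genes beyond the rule, of which a pDC held a median of 13. Tcf4, fixed as a marker but not used by the rule, was detected in 98.4% of the cells, Irf8 in 99.7% and Bst2 in 99.2%. Bst2 was not restricted to pDC, and was detected in 69.9% of Kupffer cells, 31.3% of T cells and 14.5% of B cells. Irf8 was detected in 46.1, 15.4 and 41.1% of these classes. Their cells were shallower, at medians of 2536, 2726 and 1549 UMIs against 4367.5 in pDC. They held medians of 3, 1 and 3 of the 17 core genes. At the edge of the rule, the 4 pDC with 1 Siglech UMI and 1 partner gene held a median of 4 core genes, and the 19 kept barcodes with 1 Siglech UMI and no partner gene held a median of 3. The 98 barcodes with a partner gene and no Siglech also held a median of 3, the same as Kupffer and B cells. At this edge the core genes thus separated the cells little from other classes. By contrast, 107 barcodes that were left out for a UMI of Cd79a, Cd3e, Cd3g or Xcr1 held a median of 12 core genes at a median of 5493 UMIs, and 62 left out for 3 or more Kupffer genes also held a median of 12. When all kept barcodes were clustered, 359 of the 366 pDC fell into 1 of 18 clusters, which held 518 cells.

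Genes of other cell types were seen in many barcodes, and the part of free RNA in this was not tested. Siglech was detected in 2.90% of T cells (chosen by Cd3e or Cd3g, median 2726 UMIs) and in 1.96% of Kupffer cells (median 2536 UMIs), against every pDC by construction (median 4367.5 UMIs). Kupffer cell genes were in turn seen in pDC: Cd5l in 40.2% of pDC and 31.5% of T cells, and Clec4f in 33.1% and 26.5%. Of the pDC, 94 held none of the 6 Kupffer genes, 167 held 1 and 105 held 2.

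pDC made up 2.64% of kept barcodes in exercise replicate 1 (exact 95% binomial interval 2.09 to 3.29%) and 3.01% in exercise replicate 2 (2.51 to 3.57%). They made up 1.76% in sedentary replicate 1 (1.38 to 2.22%) and 2.36% in sedentary replicate 2 (1.90 to 2.89%). Both exercise libraries lay above both sedentary libraries, but the intervals of exercise replicate 1 and sedentary replicate 2 overlapped. The mean was 2.82% ± 0.261 (SD, n = 2) against 2.06% ± 0.422 (SD, n = 2), a log2 ratio of 0.45, with a two-sided exact permutation p = 0.333, the smallest that 2 against 2 libraries can give. Intervals cover counting error only.

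Shares are tied to what else was captured. Among barcodes with fewer than 3 Kupffer genes, pDC made up 6.20% ± 0.861 against 3.80% ± 1.01 (SD, n = 2 each), a log2 ratio of 0.71. B cells (chosen by Cd79a and 1 more B cell gene) moved the other way, at 10.8, 8.34, 18.3 and 13.3% of all kept barcodes, a log2 ratio of -0.73 (exact permutation p = 0.333). Conventional dendritic cells of type 1 (cDC1, chosen by Xcr1) and type 2 (cDC2, chosen by Cd209a) had log2 ratios over all kept barcodes of -0.26 (exact permutation p = 0.667) and 0.44 (exact permutation p = 0.333). How far the B cell share moved the pDC share was not tested.

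**Figure D1:**
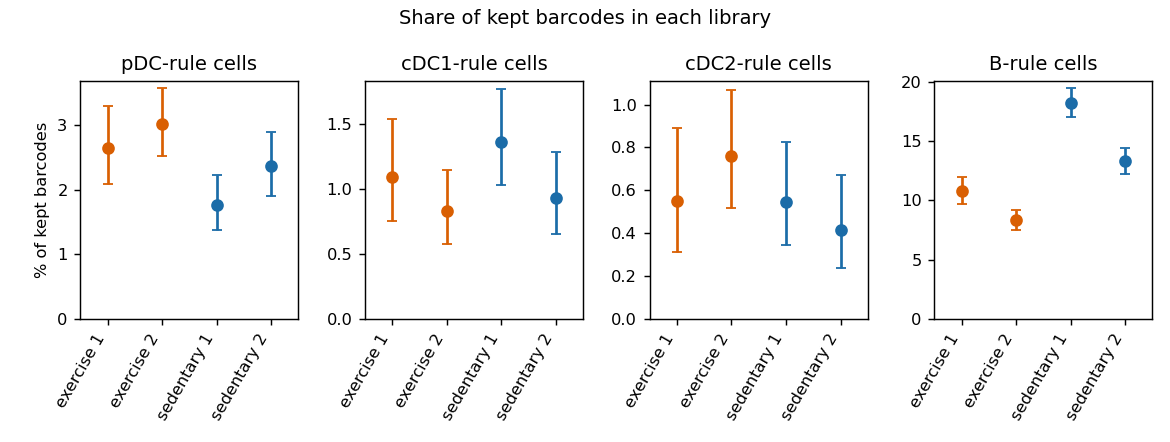
Share of kept barcodes per library (percent, vertical axis) for pDC, cDC1, cDC2 and B cells, 1 point per library with its exact 95% binomial interval, exercise in orange and sedentary in blue. pDC lie at 2.64 and 3.01% in the exercise and at 1.76 and 2.36% in the sedentary libraries.

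To place the cells among their closest relatives in the liver, pDC counts were summed per library and compared with 158 cDC1, 86 cDC2 and 1915 B cells of the same libraries. The edgeR quasi-likelihood test was used with library as a block and Benjamini-Hochberg adjustment over all tested genes at 0.05, and genes that define either class were left out. Median depths of the cells were 7962 to 10086 UMIs over the libraries in cDC1, 4989 to 6108.5 in cDC2 and 1397 to 1739 in B cells. Against cDC1, 1158 of 4795 genes were higher in pDC (24.2%) and 1098 were lower (22.9%). Against cDC2, 694 of 3969 were higher (17.5%) and 757 lower (19.1%), and against B cells 1665 of 6838 were higher (24.3%) and 1664 lower (24.3%). Of 3757 genes tested in all 3 comparisons, 476 were higher in pDC each time (12.7%) and 283 lower each time (7.53%). The comparisons share the pDC counts, and they describe cells selected by marker genes. Log2 differences are given in the order cDC1, cDC2, B cells, after TMM scaling, with the median of all tested genes at 0.04, 0.02 and -0.03.

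Transcription factors of the pDC lineage stood well above the other classes. Tcf4, the E protein of pDC identity, was measured at 1150, 1205, 1372 and 1206 CPM in pDC, against 20.4 to 33.5 in cDC1, 51.9 to 131 in cDC2 and 119 to 143 in B cells. No library of another class came near the lowest pDC library, and the log2 differences were 5.03, 3.93 and 3.07 (edgeR adjusted p 2.7e-38, 2.07e-17 and 1.18e-57). Runx2, which directs pDC exit from bone marrow, stood at 320, 347, 385 and 338 CPM, with log2 differences of 5.16, 4.11 and 6.84. Bcl11a, which acts upstream of pDC and B cell fate, differed by 3.44, 2.08 and 1.22.

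Irf8, needed for both pDC and cDC1, separated the classes unevenly. Its pDC level of 4162, 3815, 4252 and 4236 CPM stood beside 1914 to 2130 in cDC1, 62.9 to 494 in cDC2 and 298 to 352 in B cells, with log2 differences of 0.63, 3.80 and 3.49. Irf7, the master factor of interferon transcription, was at 244, 308, 301 and 343 CPM, with differences of 1.08, 1.18 and 2.64, although 1 cDC1 library reached 286. Spib, an Ets factor of pDC and B cells, held 613 UMIs in pDC, 1 in cDC1, 14 in cDC2 and 632 in the far more numerous B cells, a difference of 0.92 against the latter.

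Of the 12 listed pDC transcription factors, all tested, 11 were higher and 1 lower than in cDC1, 9 and 1 than in cDC2, and 10 and 2 than in B cells. The medians were 3.07, 2.02 and 1.28. All 12 could also be tested between exercise and sedentary pDC, so the low-count filter favoured the higher direction. The factor lower than in both cDC classes was Cbfa2t3, a corepressor, at -0.69 and -0.73. The cDC2 difference of Cbfa2t3 had an adjusted p of 0.133 without exercise replicate 2 and 0.140 without sedentary replicate 1 (edgeR, 0.00146 to 0.140 over 9 alternatives). Against B cells Ets1 and Mef2c, both used in lymphocyte development, were lower, at -2.75 and -0.84.

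Factors of other lineages were low in pDC. Id2, the E protein inhibitor of cDC, stood at 25.5, 57.5, 29.4 and 61.8 CPM in pDC against 1762 to 2123 in cDC1 and 373 to 785 in cDC2, with log2 differences of -5.77, -3.94 and -0.73. Batf3, required for cDC1, was lower, at -6.59 against cDC1 and -5.69 against cDC2. The B cell factors Ebf1 and Pax5 were lower than in B cells, at -9.16 and -7.71. None of the tested members of this 10-gene list was higher: 4 of 6, 4 of 5 and 6 of 7 were lower. Between exercise and sedentary pDC only 3 of the 10 could be tested, so the low-count filter favoured this direction.

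Other genes known from pDC, many of them surface proteins, were mostly higher. Of 28 listed, all tested, 26 were higher and 0 lower than in cDC1, 26 and 1 than in cDC2, and 25 and 1 than in B cells, with medians of 5.05, 3.75 and 4.73. Placing the 5 genes with 0 UMIs in cDC1 and the 1 with 0 in cDC2 at their lower bound left these medians at 5.05 and 3.75. All 28 could also be tested between exercise and sedentary pDC, so genes low in another class still passed the low-count filter through pDC. That favoured the higher direction, and the list was chosen with earlier results of these data known. Bst2, the tetherin antigen used to stain pDC, stood at 3431, 3704, 3860 and 3551 CPM against at most 168, 340 and 105 in libraries of the other classes, with differences of 4.41, 3.48 and 5.07. Kupffer cells, 69.9% of which held a Bst2 UMI, were not part of this comparison. Ly6c2, a GPI-anchored Ly6 protein, stood at 2451, 3295, 2726 and 2373 CPM, with differences of 6.62, 4.56 and 4.80. Ly6d, shared by pDC and early B lineage cells, was higher by 7.86 and 5.98 than in the cDC classes, and by only 0.59 than in B cells, which held 2160 to 2339 CPM. Lag3, an MHC class II-binding inhibitory receptor, differed by 5.88, 4.22 and 7.66.

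Cd8b1 and Dntt, known from lymphocytes, were among the genes highest over all 3 classes. Ranked by their smallest difference, the 10 leading genes were D13Ertd608e, Ccdc162, Cd8b1, Paqr5, Klk1b27, Sh3bgr, Havcr1, Atp2a1, Ldhb and Dntt. D13Ertd608e, a gene with no role known with certainty, held 786 UMIs in pDC and 0, 2 and 3 in cDC1, cDC2 and B cells, at least 228-fold higher than cDC1 against a floor of 3 counts over the group. Dntt, the terminal transferase of lymphocyte antigen receptor rearrangement, held 257 UMIs against 0, 2 and 2, at least 74.5-fold higher than cDC1. Havcr1, the receptor TIM-1, held 178 against 0, 1 and 1. Klk1b27 is one of a family of near-identical kallikreins that includes Klk1, so its 449 UMIs are uncertain.

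Cd8b1 and Cd4, coreceptors of T cells, were also present in cells chosen for 0 UMIs of Cd3e and Cd3g. Cd8b1 stood at 374, 470, 382 and 276 CPM in pDC, against at most 8.82 in any library of the other classes, with log2 differences of 6.51, 6.35 and 6.64. With each cell thinned to 1000 UMIs, Cd8b1 was seen in 24.9% of pDC and 0.213% of B cells, and Cd4 in 12.3% and 0.160%. Unthinned, the shares were 45.1% and 36.6% of pDC, and 0.366% and 0.261% of B cells. Il7r, a receptor of lymphoid progenitors, held 140 UMIs in pDC against 1, 3 and 8.

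Growth factor receptors were split. Of 10, 9 and 10 tested of 12 listed, 6, 5 and 8 were higher and 3, 3 and 1 lower. Ifnar2, a chain of the type I interferon receptor, was higher by 1.58, 1.11 and 2.82, and Lifr, the leukemia inhibitory factor receptor, by 4.74, 2.29 and 3.63. Flt3, the receptor that drives dendritic cell development, was lower than in cDC1, at -1.56, and higher than in B cells by 4.04, and could not be tested against cDC2, which it helped define. Csf2ra, the GM-CSF receptor, was lower than in both cDC classes, at -2.36 and -2.67.

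**Figure D2:**
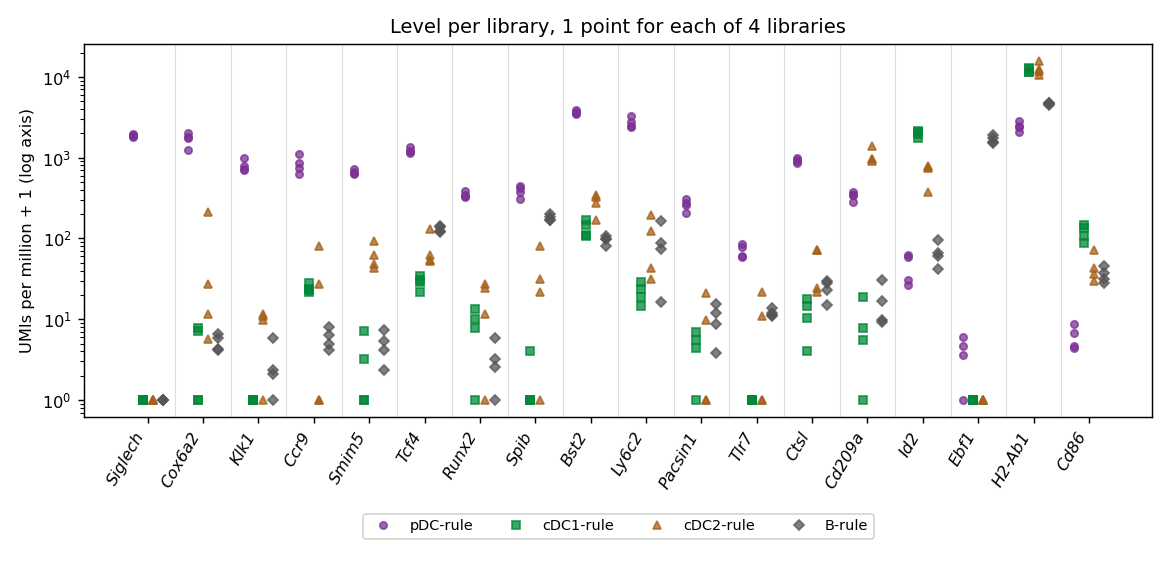
Level of 18 genes in pDC, cDC1, cDC2 and B cells (CPM plus 1, log axis), 1 point per library. Tcf4, Bst2 and Ly6c2 stand highest in pDC in all 4 libraries, and Id2 and H2-Ab1 are lower in pDC than in both cDC classes.

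The machinery that senses nucleic acid was raised at some steps. Of 28 listed genes, 17, 16 and 21 were tested, and 8, 8 and 13 were higher with 1, 1 and 5 lower, at medians of 0.37, 0.71 and 0.64. Tlr7, the endosomal receptor for single-stranded RNA, stood at 59.5, 77.8, 58.7 and 85.0 CPM, 116 UMIs in all, against 0 UMIs in cDC1 (at least 33.6-fold higher), 3 in cDC2 and 38 in B cells (log2 2.49). Tlr9, the receptor for unmethylated DNA, gave 1 UMI over all pDC and Tlr8 gave 0, so no difference of these was detectable at this depth. Pld4, an exonuclease that degrades endosomal nucleic acid, was higher by 1.44, 1.34 and 3.28.

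Other steps of this pathway differed in both directions. Ctsl, a protease that cleaves Toll-like receptors into their active form, stood at 853, 921, 914 and 989 CPM against at most 70.6 in any library of the other classes, with differences of 5.98, 4.21 and 5.13. Unc93b1, the chaperone that carries these receptors to endosomes, differed by 0.69 from cDC2 and 0.98 from B cells, and by 0.18 from cDC1 with an adjusted p of 0.0729 (edgeR). Slc15a4, an endolysosomal transporter required for Tlr7 and Tlr9 signalling in pDC, was higher by 1.97, 0.76 and 0.54. Irf5, a factor of inflammatory cytokine genes, went the other way against the cDC classes, at -1.04 and -0.85.

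Inhibitory and ITAM signalling genes were more often higher than lower. Of 17 listed, 15, 14 and 15 were tested, with 10, 8 and 8 higher and 2, 3 and 5 lower. Tyrobp, the ITAM adaptor that pairs with Siglech, stood at 6451, 6767, 6439 and 6156 CPM, with differences of 2.41, 1.13 and 4.00, and Fcer1g, a related adaptor, differed by 2.81, -0.40 and 2.44. Lair1, a collagen-binding inhibitory receptor, differed by 6.30, 3.54 and 5.91, and Ptpn6, the phosphatase recruited by such receptors, by 2.03, 0.73 and 0.67. Pacsin1, an adaptor of membrane trafficking in pDC whose promoter window is shown above, held 303, 208, 271 and 258 CPM and differed by 5.69 from cDC1 and 4.58 from B cells. Blnk, a B cell adaptor, held 313 UMIs in pDC and differed from B cells by -0.14 with an adjusted p of 0.343 (edgeR).

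No interferon message was seen. All 19 listed type I and III interferon genes, 14 of them Ifna-type genes, had 0 UMIs in 366 pDC, which allows a share of up to 0.820% of cells with a UMI and up to 1.87 CPM per gene. These limits cover only UMIs counted to a single gene. Whether reads shared among the Ifna-type genes went uncounted was not tested. Of 32 interferon and cytokine genes, 21 had 0 UMIs in pDC, including Il12b and Il6, and 6 could be tested in each comparison. Those 6 were 3 higher and 2 lower against cDC1, 2 and 3 against cDC2, and 3 and 3 against B cells. The chemokine Ccl4 was higher by 4.70, 4.91 and 4.51 and Ccl5 lower, at -1.58, -2.03 and -1.36, and both were spread unevenly among cells. Ccl5 summed to 60, 45, 16 and 27 UMIs, and single cells held up to 30, 20, 1 and 5.

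Genes that interferon induces were not raised as a group. Of 34 listed, 16, 19 and 23 were tested: 3 were higher and 5 lower than in cDC1, 0 and 12 than in cDC2, and 6 and 7 than in B cells, at medians of -0.13, -1.06 and 0.24. Isg15, a ubiquitin-like protein of the antiviral response, stood at 25.5, 59.2, 22 and 54.1 CPM in pDC, with differences of -0.72 (edgeR adjusted p = 0.0529), -2.02 and 0.66. The adjusted p of Isg15 crossed the threshold under other settings, at 0.000130 to 0.0565 against cDC1 and 0.0131 to 0.491 against B cells, where it was 0.0862 without exercise replicate 2 and 0.491 without sedentary replicate 2 (edgeR). Ifitm3, which blocks virus entry, was lower, at -1.54, -4.46 and -0.68. Ifi27l2a was higher by 2.02 than in cDC1 and lower than in cDC2, at -0.43.

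The secretory pathway list leaned upward in each comparison. Of 38 listed genes, 36, 36 and 37 were tested, with 16, 16 and 28 higher and 5, 3 and 2 lower, at medians of 0.27, 0.44 and 0.74. Xbp1, the factor that expands the endoplasmic reticulum, stood at 402, 509, 532 and 598 CPM, against at most 127, 150 and 109 in libraries of the other classes, and was higher by 1.81, 2.06 and 2.32. Sec61b, part of the protein translocation channel, was higher by 0.59, 0.84 and 1.65. Mzb1, a chaperone of B and plasma cells, stood at 232, 220, 191 and 147 CPM, at least 93.1-fold higher than in cDC1 with 0 UMIs, and was lower than in B cells, at -1.55. Hspa5, the main chaperone of the unfolded protein response, was lower than in the cDC classes, at -0.59 and -0.56, and higher than in B cells by 0.37.

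Genes of antigen presentation were lower with few exceptions. Of 18 listed MHC class II and co-stimulation genes, 13, 13 and 15 were tested, with 12, 13 and 13 lower and 1, 0 and 2 higher, at medians of -2.28, -2.58 and -1.86. Only 9 of the 18 could be tested between exercise and sedentary pDC, so the low-count filter favoured the lower direction for the rest. H2-Ab1, a class II beta chain, stood at 2861, 2078, 2414 and 2463 CPM in pDC, against 11561 to 13022 in cDC1, 10676 to 15729 in cDC2 and 4471 to 4786 in B cells. T cells, which do not make it in mice, held 667, 577, 611 and 752 CPM, and the part of free RNA in the pDC level was not tested. Cd74, the invariant chain, was lower, at -1.82, -1.82 and -1.17, as was Cd86, a co-stimulatory ligand, at -4.82, -3.17 and -2.90. H2-Ob, which restrains class II peptide loading, led the genes lower in all 3 comparisons, at -3.79, -3.29 and -5.09.

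Homing and adhesion genes had no common direction, with 5, 5 and 10 higher and 6, 4 and 4 lower of 14, 15 and 16 tested. Ccr2, used by monocytes and pDC to reach inflamed tissue, was lower than in the cDC classes, at -0.83 and -1.32, and higher than in B cells by 2.88. Cxcr3, a receptor for interferon-induced chemokines, was higher than in B cells by 3.39 and differed from cDC1 by 0.05 (edgeR adjusted p = 0.871).

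Genes used to choose cDC2 were also measured in pDC, and no test against cDC2 could be run on them. Cd209a, a C-type lectin, stood at 377, 340, 349 and 281 CPM in pDC, against at most 18 in cDC1, 29.9 in B cells and 35 in T cells. It was higher than in cDC1 by 5.11 and than in B cells by 4.28. Clec10a, a lectin for galactose residues, was higher by 5.48 and 5.92, and Cd7, an immunoglobulin-like surface protein, by 6.80 and 5.70. After thinning, Cd209a was seen in 23.5% of pDC and 0.638% of B cells.

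The division genes Top2a and Mki67 were not seen. Top2a, a topoisomerase of dividing cells, had 0 UMIs in pDC, at least 30.3-, 47.4- and 6.06-fold lower than in cDC1, cDC2 and B cells, and Mki67, an antigen of dividing cells, also had 0. A cell with at least 3 of 10 cell cycle genes was found in 0 of 366 pDC, against 7.59% of cDC1, 10.5% of cDC2 and 0.470% of B cells, whose depths differ. Of the tested cell cycle genes, 11 of 12, 8 of 9 and 6 of 7 were lower and none higher. Between exercise and sedentary pDC only 3 of the 18 listed could be tested. The others passed the low-count filter here mainly through the other class, which largely set their direction. Myc, a growth regulator named here after its values were seen, had 0 UMIs in pDC against 33, 18 and 117.

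Immediate early and heat shock genes, which also respond to cell isolation, were more often lower than higher. Of 30 listed, 26, 23 and 27 were tested, with 19, 15 and 15 lower and 5, 3 and 1 higher, at medians of -1.19, -1.52 and -0.79. Only 20 of the 30 could be tested between exercise and sedentary pDC, so the low-count filter favoured the lower direction for the rest. Junb, an AP-1 subunit, stood at 99.2, 71.0, 143 and 137 CPM in pDC against 418 to 891 in libraries of the other classes. Junb, Ier2 and Dusp1 were among the 10 leading genes lower in all 3 comparisons, with Pim1, Nap1l1, H2-Ob, H2-Eb1, H2-DMb2, Ifngr1 and Lyz2. Of 11 tested cytochrome c oxidase subunits, a list without Cox6a2 because that gene chose the cells, 0 were higher than in either cDC class, 6 and 1 were lower, and against B cells 8 were higher and 1 lower.

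**Figure D3:**
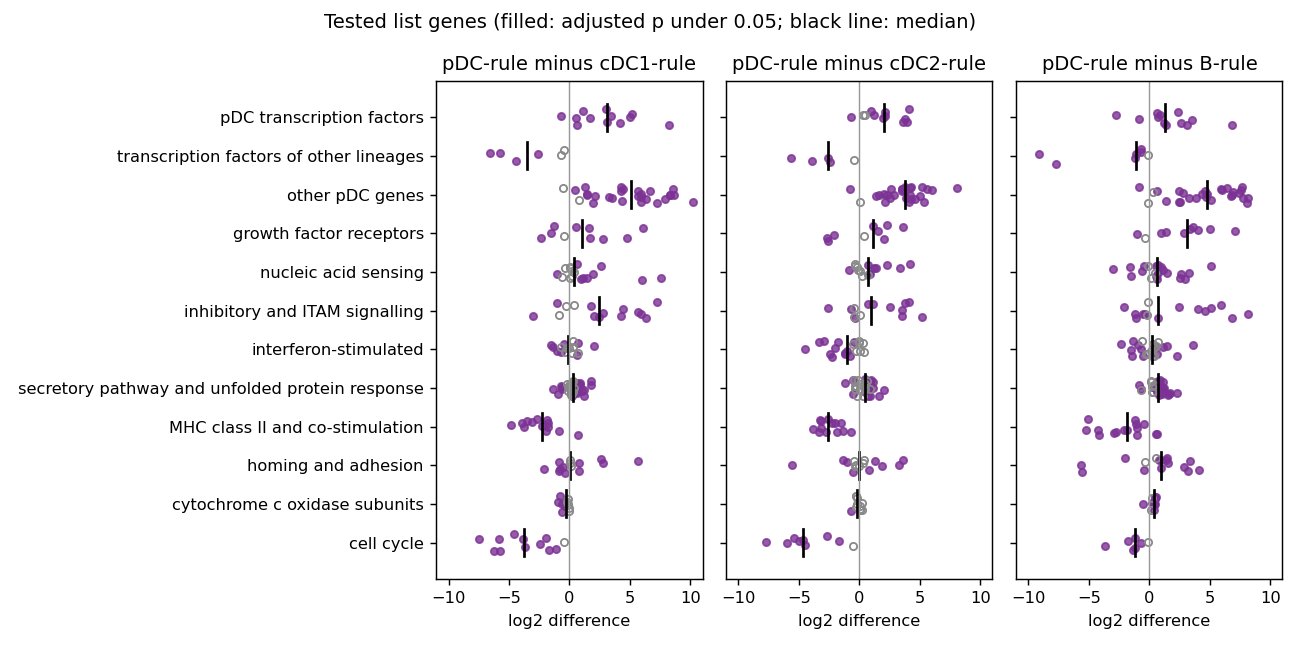
Log2 difference of each tested gene of 12 lists in pDC against cDC1, cDC2 and B cells. Filled points have an adjusted p under 0.05 and the black line is the list median, which for pDC transcription factors is 3.07, 2.02 and 1.28 and for MHC class II and co-stimulation -2.28, -2.58 and -1.86.

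At the depth compared, most genes varied among pDC about as much as counting alone gives. Low counts per gene can hide real variation between cells. With 361 of the cells thinned to 2000 UMIs and 5 shallower cells left out, 1903 genes had a mean of at least 0.1 UMI in every library, and their median Fano factor (variance over mean, 1 for pure counting) was 1.03. A Fano factor of at least 2 in all 4 libraries was found for 10 genes. They included the MHC class II presentation genes Cd74 (5.48 to 14.0), H2-Ab1 (3.14 to 9.05) and H2-Aa (3.15 to 7.37). Actb, a cytoskeletal actin, was at 14.6 to 24.2, Ly6c2 at 3.99 to 4.56 and the interferon-induced Ifi27l2a at 2.30 to 3.89. The rule gene Klk1 was among them, at 2.06 to 3.0. Single cells produced other high values: Apoe, a lipid carrier of Kupffer cells and hepatocytes, was at 119 in sedentary replicate 2, where 1 cell held 404 of 742 UMIs, and at 0.783 to 5.75 in the other libraries.

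Ccl4, a chemokine that recruits leukocytes, was spread unevenly among cells and libraries. It summed to 4, 380, 39 and 562 UMIs, or 11.3, 642, 143 and 1448 CPM. In exercise replicate 2 a single cell held 295 UMIs, and the rest of that library summed to 85. In sedentary replicate 2 the highest cell held 149, the rest summed to 413, and 20 cells held at least 5. In sedentary replicate 1 no cell held more than 5. Cells with at least 1 UMI made up 5.19, 16.5, 28.2 and 48.4% of pDC, so they were more frequent in both sedentary libraries, while the summed level overlapped between groups (log2 difference -1.24, edgeR adjusted p = 0.999). That difference was -6.14 without exercise replicate 2 and 1.28 without sedentary replicate 2. T cells, which can express it, held 33.9, 80.9, 73.7 and 157 CPM, in the same order of libraries as pDC. Of B cells, 2.61% held a UMI at a median depth of 1549 UMIs. Ccl3, its close relative, gave 2, 62, 3 and 27 UMIs, of which 53 in exercise replicate 2 were in 1 cell.

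**Figure D4:**
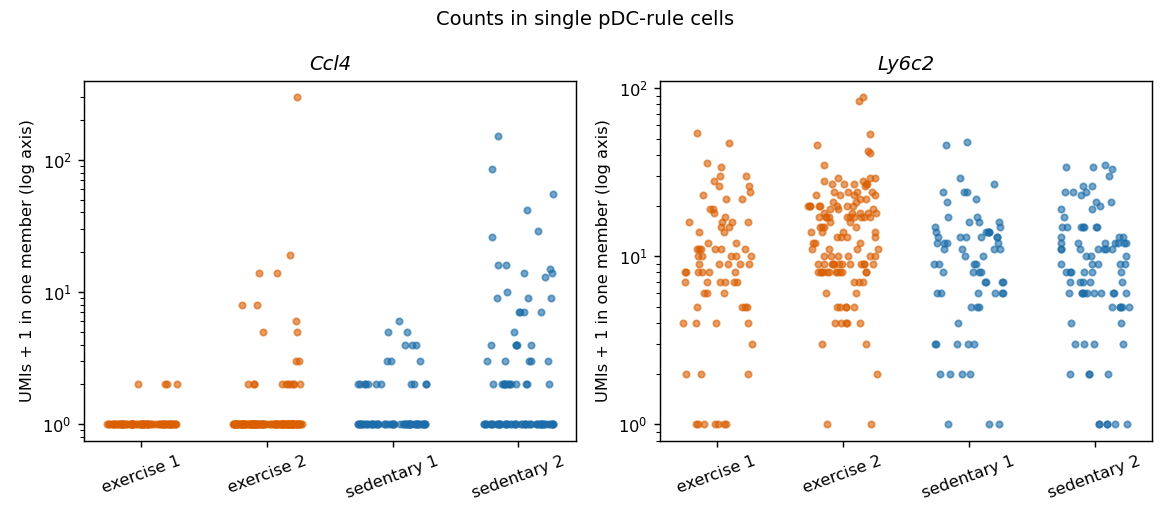
UMIs plus 1 per pDC (log axis) of Ccl4 and Ly6c2 by library, 1 point per cell. Ccl4 is at 0 in most cells and reaches 295 UMIs in 1 cell of exercise replicate 2 and 149 in 1 cell of sedentary replicate 2, whereas Ly6c2 is spread over nearly all cells of every library.

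The effect of treadmill training on pDC was tested on the summed counts of the 4 libraries, without a block. Of 4473 genes tested, 3 were lower in the exercise libraries (0.0671%) and 0 were higher (0%), with 235 at an unadjusted p under 0.05 by edgeR. DESeq2, run on 12341 genes without that low-count filter, called 0 genes lower or higher, with 27 at an unadjusted p under 0.05. The 3 genes were Zfp36l2, H3f3b and Srsf5.

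Zfp36l2, a zinc finger protein that promotes decay of AU-rich mRNA (chr17:84183931-84187947, minus strand, GRCm38), stood at 159, 206, 319 and 688 CPM. Both exercise libraries were below both sedentary ones, and sedentary replicate 2 stood far above the rest. The log2 difference was -1.48 with a standard error of 0.23 (edgeR adjusted p = 0.00366). Without sedentary replicate 2 it was -0.79 (edgeR adjusted p = 0.237), and over 12 alternatives it ran from -1.90 to -0.79, with adjusted p of 2.9e-20 to 0.388. The same gene stood at 178, 248, 380 and 760 CPM in B cells and at 165, 313, 353 and 456 in cDC1, in the same order of the same 4 libraries. In cDC2 it stood at 403, 505, 617 and 566 CPM, with sedentary replicate 1 highest. These cDC2 sums came from only 16, 32, 22 and 16 cells, with 40, 107, 70 and 54 UMIs of Zfp36l2. Counts this low limit what the order of the cDC2 libraries can show.

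H3f3b, which encodes the replacement histone H3.3 (chr11:116021912-116027962, minus strand), stood at 2020, 2044, 2605 and 3138 CPM. The groups did not overlap, and the log2 difference was -0.51 with a standard error of 0.09 (edgeR adjusted p = 0.0246). Srsf5, a splicing factor (chr12:80945504-80950507, plus strand), stood at 261, 228, 418 and 456 CPM. Its groups did not overlap either, and the log2 difference was -0.86 with a standard error of 0.16 (edgeR adjusted p = 0.0265). Without sedentary replicate 2, H3f3b was at -0.37 (edgeR adjusted p = 0.0900) and Srsf5 at -0.79 (edgeR adjusted p = 0.104). H3f3b also missed the threshold without exercise replicate 1 (edgeR adjusted p = 0.0777), and Srsf5 without exercise replicate 2 (edgeR adjusted p = 0.144). Over the 12 alternatives H3f3b ran from -0.63 to -0.37 and Srsf5 from -0.95 to -0.70, each with adjusted p up to 1.00 (DESeq2). In B cells H3f3b stood at 1440, 1596, 2260 and 2219 CPM and Srsf5 at 313, 309, 490 and 472. In cDC1 H3f3b stood at 882, 937, 1265 and 1369 CPM and Srsf5 at 183, 158, 252 and 255. In cDC2 H3f3b stood at 1321, 1492, 1764 and 1573 CPM. Srsf5, whose groups overlapped in cDC2, stood there at 313, 208, 326 and 189 CPM, from only 31, 44, 37 and 18 UMIs.

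RNA of other cells differed between the libraries of pDC. The summed level of 10 hepatocyte markers in pDC was 17.0, 15.2, 194 and 67.0 CPM, that of 6 erythroid markers 0, 1.69, 44.0 and 15.5, and that of 6 neutrophil markers 8.50, 37.2, 58.7 and 95.3, so hepatocyte and erythroid RNA was higher in both sedentary libraries. The erythroid Hba-a1 and Alas2 were at 0. The pDC with no UMI of the hepatocyte and erythroid lists numbered 72, 118, 29 and 64. In those cells alone Zfp36l2 was lower, at -1.61 (edgeR adjusted p = 0.0235), while H3f3b, at -0.55, had an adjusted p of 0.109 and Srsf5, at -0.70, one of 0.682 (edgeR). With the fewer cells, 3931 genes were tested.

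The strongest genes that missed the threshold are given as values. Cd180, a Toll-like receptor relative that modulates signalling in B cells and dendritic cells, stood at 269, 282, 147 and 157 CPM, a log2 difference of 0.84 (edgeR adjusted p = 0.0798). Rsrp1, a nuclear speckle protein, stood at 524, 374, 301 and 232 CPM (0.74, edgeR adjusted p = 0.174), and Luc7l3, a splicing protein, at 133, 134, 73.4 and 69.6 CPM (0.89, edgeR adjusted p = 0.299). The groups of all 3 were separated, which the rule for naming them required. Tsc22d3, the glucocorticoid-induced leucine zipper GILZ, stood at 82.2, 101, 150 and 237 CPM, a log2 difference of -1.09 (edgeR adjusted p = 0.0639). Apoe, at 632, 840, 873 and 1912 CPM, had a log2 difference of -0.94 (edgeR adjusted p = 0.0639), with the single cell of sedentary replicate 2 included. That cell held 404 of 742 UMIs and the rest summed to 338, while 1 cell of sedentary replicate 1 held 50 of 238. Over 12 alternatives the Apoe difference ran from -1.37 to -0.015.

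The gene lists held 0 called genes, which at 0.0671% called over all genes says nothing about any list, so they are described by their differences. In the glucocorticoid-induced and quiescence list, 6 of 13 genes could be tested and all 6 differences were negative, with a median of -1.02 against 0.00 for all tested genes. The summed level of that list was 1346, 1319, 1728 and 2200 CPM. Of the 20 tested immediate early and heat shock genes, 13 differences were negative and 7 positive, at a median of -0.22. Fos, an AP-1 subunit, stood at 59.5, 72.7, 125 and 142 CPM, a difference of -1.0 with an adjusted p of 0.144 by edgeR.

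The lists of pDC identity and function had median differences near 0, and several leaned to the negative side. Tcf4 differed by -0.14 (standard error 0.11), Irf8 by -0.10 (0.08), Irf7 by -0.23 (0.17) and Bst2 by -0.07 (0.08), each with an edgeR adjusted p of 1.00. The median difference was -0.13 for the 12 pDC transcription factors, -0.07 for the 28 other pDC genes, 0.04 for 17 nucleic acid sensing genes, -0.04 for interferon-stimulated genes, -0.05 for 36 secretory genes and 0.00 for 9 MHC class II and co-stimulation genes. Signs were 10 negative and 2 positive for the pDC transcription factors, and 19 and 9 for the other pDC genes. They were 8 and 9 for nucleic acid sensing and 21 and 15 for secretory genes. For 14 inhibitory and ITAM signalling genes they were 12 and 2, at a median of -0.11. For 15 homing and adhesion genes they were 8 and 7, at a median of -0.15. Slc15a4, the endolysosomal transporter, stood at 130, 144, 66.0 and 106 CPM, a difference of 0.63 with an adjusted p of 0.744 by edgeR.

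**Figure D5:**
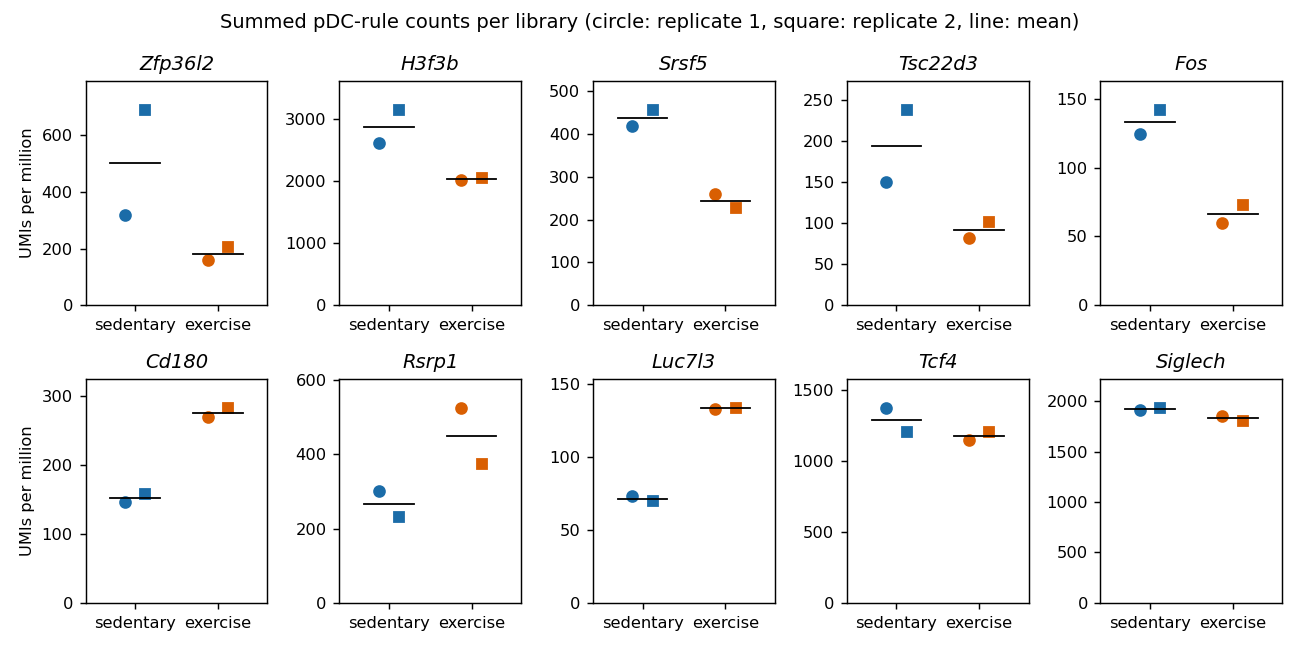
Level of 10 genes in pDC (CPM) by group, 1 point per library (circle replicate 1, square replicate 2) with the group mean as a line. Zfp36l2, H3f3b and Srsf5 are lower in both exercise libraries, and sedentary replicate 2 is the highest library for each of these genes.

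Whether training acted differently on pDC was tested as the exercise difference in pDC minus its mean in cDC1, cDC2 and B cells. Of 5735 genes, 3 passed the edgeR threshold (0.0523%), all with a lower exercise difference in pDC, and 237 had an unadjusted p under 0.05 (edgeR). Zfp36l2, H3f3b and Srsf5 were not among them, at -0.57, -0.04 and -0.41 with adjusted p of 1.00. The 3 genes were Lyz2, the macrophage lysozyme, Ecm1, an extracellular matrix protein, and S100a8, a neutrophil calcium-binding protein. Their UMIs in pDC were few or concentrated: all 44 Ecm1 UMIs of sedentary replicate 1 and 65 of 121 Lyz2 UMIs of sedentary replicate 2 came from 1 cell each, and S100a8 had 1, 11, 8 and 19 UMIs. Lyz2 also differed within cDC2, at 3680, 3092, 882 and 724 CPM. Without exercise replicate 1, and likewise without exercise replicate 2, 0 genes passed.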

How the data were processed

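The deposited values are whole-number UMI counts per gene and barcode, not normalized by the authors. Per the submitters' processing notes, Cell Ranger, Seurat 3.1 and mm10 (GRCm38) were used. The Cell Ranger version and the use of strand are not given in the sources used here. Per the labels, reads were aligned to a pre-mRNA reference, so counts may include intronic reads. The members and gene lists were chosen with earlier results of these data known. Of 436 listed symbols 430 matched, and Ifi209, Cebpd, Iglc1, Iglc2, Igkc and Fcn3 were not used.

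For each class the UMIs of a library were added up, and the sums were tested with edgeR 4.0.16 in R 4.3.3 (limma 3.58.1): glmQLFit and glmQLFTest, TMM scaling and filterByExpr. Barcodes were handled with pandas 2.3.3, numpy 2.4.6, scikit-learn 1.9.0 and scipy 1.17.1 in Python 3.11.15 and clustered with leidenalg 0.10.2 and igraph 0.11.9 (2000 variable genes, 30 components, 20 neighbours, resolution 1). Doublets were not removed in the main values. Scoring against 2 simulated doublets per barcode, at 0.8% per 1000 barcodes, marked 68, 143, 130 and 119 barcodes, among them 0, 2, 0 and 1 pDC. The fits were also run on simulated counts with a fixed spread. The simulation held no outlier cells and no RNA of other cells, so it does not bear on genes that these affect. cDC1 held Xcr1 and at least 1 of Clec9a, Wdfy4, Naaa and Tlr3. cDC2 held Cd209a and at least 1 of Clec10a, Mgl2, Flt3 and Cd7. B cells held Cd79a and at least 1 more B cell gene, among them Cd79b and Ms4a1. Some genes are not reported here. cDC1, cDC2 and B cells held 0 UMIs of Siglech, Cd3e and Cd3g and fewer than 3 Kupffer genes. Both cDC classes also held 0 UMIs of Cd79a, and cDC2 and B cells 0 of Xcr1. No class excluded Cd209a or the other genes that chose cDC2, so pDC could hold them.

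Named genes were all genes past an adjusted p of 0.05 between exercise and sedentary, filled to 5 per direction by smallest p among genes of at least 50 CPM whose groups did not overlap. Up to 4 genes per list were added. Between classes they were the 10 per direction with the largest smallest difference at 100 CPM or more, and members of the lists by role. Alternatives were RLE scaling, DESeq2 1.42.0, no filter on low counts, a replicate block, other member rules, doublets removed, cells without hepatocyte or erythroid UMIs, all cells of the cluster, and leaving out each library.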

Additional observations from a re-analysis of the deposited data

Results flagged for a closer look

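For 3 genes the difference between exercise and sedentary libraries was itself different in pDC from its mean in cDC1, cDC2 and B cells, by an interaction test (edgeR adjusted p = 0.0416 each). Lyz2 had a log2 interaction of -1.24 with a standard error of 0.26. It stood at 198, 149, 139 and 312 CPM in pDC and at 3680, 3092, 882 and 724 in cDC2, so the exercise libraries were higher in cDC2, while T cells held 710, 417, 467 and 318. Ecm1 had a log2 interaction of -6.33 with a standard error of 1.34, from 0, 1, 44 and 2 UMIs in pDC. The pDC of sedentary replicate 1 also held 124 Dcn UMIs, 123 of them in 1 cell. S100a8 had a log2 interaction of -2.70 with a standard error of 0.57, and stood at 9.44, 454, 57.3 and 89.5 CPM in B cells and 10.1, 307, 26.5 and 31.5 in cDC2, where exercise replicate 2 was far above the rest. The part of RNA from other cells in these values was not tested.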

How the results depend on the processing

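The log2 ratio of the pDC share was 0.41 to 0.71 over the other member rules, denominators and depths, and 0.26 to 0.68 when each library was left out in turn, with the groups separated each time. Between exercise and sedentary pDC, where 0 genes were higher and 3 lower, DESeq2 called 0 lower, no filter on low counts gave 4 higher and 14 lower, the stricter member rule 0 lower, cells with no hepatocyte or erythroid UMI 1 lower, and all cells of the cluster, an alternative chosen after seeing the data, 0 lower. Leaving out each library gave 0 to 7 higher and 3 to 26 lower, with the lone library of a group assumed to vary like the others. With the replicate number as a block, 6 genes were higher and 17 lower. The labels do not say that a number marks a shared animal or day, but replicate 1 had the lower serum alanine aminotransferase in both groups (26 and 33 U/L) and replicate 2 the higher (59 and 56 U/L), so the block and that level cannot be told apart. The correlation of same-numbered deviations was 0.125, a single value in a design of 2 by 2. For the interaction, leaving out each library gave 0 to 5 genes lower. Against the other classes, leaving out each library gave 967 to 1007 higher and 967 to 997 lower for cDC1, 489 to 633 and 540 to 709 for cDC2, and 1433 to 1501 and 1373 to 1481 for B cells. For 161 differences of named genes between classes, 1437 recomputed values kept direction and side of the threshold, 6 gained and 4 lost it, each loss from leaving out 1 library and named beside its gene. Of single genes between exercise and sedentary, direction turned for Ccl4, with a log2 difference of -6.14 without exercise replicate 2 to 1.28 without sedentary replicate 2 (edgeR adjusted p = 4.27e-62 and 0.000716). It also turned for Bst2, at -0.12 without sedentary replicate 2 to 0.00042 without sedentary replicate 1, and for Ly6c2, at -0.067 without exercise replicate 2 to 0.36 without exercise replicate 1. In the interaction, S100a8 ran from -2.91 without sedentary replicate 1 to 0.16 without exercise replicate 2. H3f3b ran from -0.17 without sedentary replicate 1 to 0.10 without sedentary replicate 2, with 0.04 without exercise replicate 2. The causes were not tested. Depth limits genes of few UMIs, such as Tlr9 and the interferon genes.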
